A study of Mus musculus with 12 samples.

Results

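The protease-activated receptors (PARs) are encoded by 4 genes in the mouse, *F2r* (PAR1), *F2rl1* (PAR2), *F2rl2* (PAR3), and *F2rl3* (PAR4). They were taken by name, and all 4 are among the 31053 genes of the scRNA-seq data. Their transcripts were followed across cell types of the tumor microenvironment (TME) of PyMT breast tumors. The data hold 12 samples, 3 PyMT-PAR2WT and 3 PyMT-PAR2G37I for cells selected with CD11c beads and another 3 and 3 for cells selected with CD4 and CD8 beads. All mice were females on a C57BL/6 background without further treatment and carried the MMTV-PyMT transgene, whose promoter is active in mammary epithelium and drives polyoma middle T. The PAR2G37I mice also carried the F2rl1 G37I allele in the germ line, so every cell of these mice had it. The ages of the sampled mice are not given in the labels. The CD11c selection used late-stage tumors and the CD4/CD8 selection mid-size tumors, and both kinds of cells were frozen and thawed before loading on the 10x Genomics platform.

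PARs are G protein-coupled receptors that are switched on by proteolysis. A protease cuts the extracellular N-terminus, and the new N-terminus folds back as a tethered ligand. PAR1 is the receptor through which thrombin acts on endothelial cells, fibroblasts, and many leukocytes. PAR2 is cut by trypsin-like proteases, among them coagulation factor Xa (FXa) and tissue factor (TF)-bound factor VIIa, and is best known from epithelia. PAR3 has a thrombin-cleavable N-terminus and is mainly described as a cofactor for other PARs. PAR4 is a thrombin receptor of platelets.

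The genes *F2rl1*, *F2r*, and *F2rl2* are neighbors on chromosome 13 and lie within 191008 bases of each other, whereas *F2rl3* is on chromosome 8. In GENCODE M21 on the GRCm38 build, *F2rl1* (ENSMUSG00000021678.9) spans 95511732 to 95525227 on the minus strand and *F2r* (ENSMUSG00000048376.6) spans 95601803 to 95618487 on the same strand. *F2rl2* (ENSMUSG00000021675.4) lies on the plus strand from 95696853 to 95702739, inside *Iqgap2*, which runs on the minus strand from 95627177 to 95891922. The exons of *F2rl2* and *Iqgap2* share 0 bases. *F2rl3* (ENSMUSG00000050147.9) is on the plus strand of chromosome 8, from 72761880 to 72763874.

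The allele that separates the genotypes changes codon 37 of *F2rl1*, next to the site where PAR2 is cut. The reference bases of codons 34 to 43 are shown because this is the position at which PAR2WT and PAR2G37I transcripts differ, with codon 37 (GGA, glycine, replaced by isoleucine in G37I) in capitals. The codons after the capitals hold the cleavage site and the first residues of the tethered ligand.

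*F2rl1* codons 34 to 43: aacagtaaaGGAagaagtcttattggcaga

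Codon 37 lies in exon 2 of 2, on the minus strand at chr13:95514262-95514264, and the 30 bases at chr13:95514244-95514273. The deposited values are molecule counts per gene, so both alleles were counted as *F2rl1* and the counts do not show which allele a cell carried.

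A unique molecular identifier (UMI) marks 1 captured mRNA molecule. The cells with at least 200 detected genes numbered 11639 for CD11c selection, with 123642015 UMIs and a median of 7943 per cell, and 22806 for CD4/CD8 selection, with 135965765 UMIs and a median of 4361. The barcodes name no sample. The barcode list of a matrix starts over in alphabetical order 6 times, and these stretches, called barcode runs, held 13314063 to 24231244 and 16203038 to 30168668 UMIs. The files used here do not tie a run to an animal or a genotype. Each matrix was therefore taken as 1 sample, genotypes were not compared, and no p-values are given. In the CD11c-selected cells 76 barcodes occurred more than once, and in the CD4/CD8-selected cells 51. Cell types were gated on raw UMIs of marker genes that include no PAR gene, and cells that passed more than 1 gate were left out (628 and 454 cells). The gates held 6446 macrophages, 1255 DCs, 185 neutrophils, 310 tumor cells, and 77 fibroblasts of the CD11c-selected cells, which also held 28 CD8 and 4 CD4 T cells. The CD4/CD8-selected cells held 17011 CD8 and 610 CD4 T cells, 878 macrophages, 256 tumor cells, 49 fibroblasts, 16 DCs, and 1 neutrophil. Genes outside the gates followed the names. The summed level of *C1qa*, *C1qb*, and *Apoe* was 26652 UMIs per 1000000 UMIs (CPM) in macrophages and 379 CPM in DCs of the CD11c-selected cells, and that of 7 tumor genes (*Krt19*, *Wfdc2*, *Csn3*, *Spint2*, *Cdh1*, *Trf*, *Lcn2*) was 17382 CPM in tumor cells and 1091 CPM in fibroblasts. Small gates also held genes of other lineages. CD11c-selected neutrophils had 1788 CPM of the 3 macrophage genes. CD4/CD8-selected fibroblasts had 2488 CPM of the tumor genes and 1251 CPM of the macrophage genes.

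The PAR genes had few molecules. In the CD11c-selected cells *F2r* had 416 UMIs, *F2rl1* 531, *F2rl2* 476, and *F2rl3* 17. The CD4/CD8-selected cells held 5674 UMIs of *F2r*, 1537 of *F2rl1*, 216 of *F2rl2*, and 57 of *F2rl3*. Levels are given as CPM of a gate, with exact 95% Poisson intervals. Where a gene had 0 UMIs, the limit is the level that 3 UMIs would give. Intervals cover counting error and no difference between animals.

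**Figure D1:**
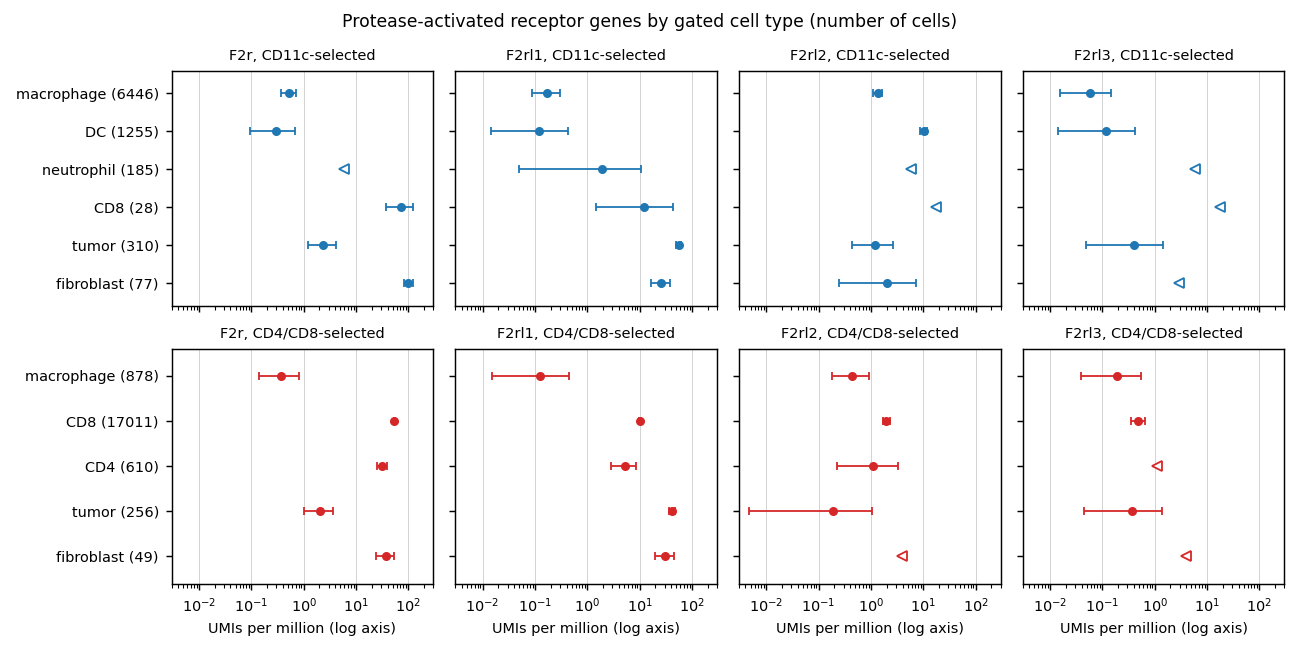
Levels of the 4 PAR genes in gated cell types, in CPM on a log axis, with the number of cells beside each gate. Points are levels with exact 95% Poisson intervals, and open triangles mark the upper limit (3 UMIs) of gates with 0 UMIs. *F2r* was highest in fibroblasts and T cells, *F2rl1* in tumor cells and fibroblasts, *F2rl2* in DCs of the CD11c-selected cells, and *F2rl3* was at most 0.479 CPM in the plotted gates in which it was detected.

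*F2r*, the thrombin receptor PAR1, was seen mainly in T cells and stromal cells. In CD8 T cells of the CD4/CD8-selected cells it stood at 53.7 CPM (interval 52.2 to 55.2, 4936 UMIs). These cells held 87.0% of the *F2r* UMIs of that matrix. They were 74.6% of its cells and held 91952310 of its 135965765 UMIs. CD4 T cells had 31.9 CPM (25.6 to 39.4), tumor cells 2.05 CPM (1.03 to 3.68), and macrophages 0.377 CPM (0.138 to 0.820). Among these 4 gates the order was CD8, CD4, tumor, and macrophage, and no neighboring intervals overlapped.

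The ratio of CD8 T cells to macrophages was 143 (interval 65.4 to 389), and CD8 T cells were higher in 6 of 6 barcode runs. By run, the CD8 level had a lowest value of 45.9 CPM, a median of 53.7, and a highest of 60.6, all above the highest CD4 run of 39.8 CPM. CD8 over CD4 T cells gave a ratio of 1.68 (1.36 to 2.10). Of the 610 CD4 T cells 383 were in run 1, where *F2r* was 39.8 CPM (30.7 to 50.7) in CD4 and 45.9 CPM (42.8 to 49.1) in CD8 T cells. These intervals overlapped, and without run 1 the CD4 level was 20.2 CPM. The 36 CD4 T cells with a *Foxp3* UMI had 2 *F2r* UMIs, or 8.58 CPM (1.04 to 31.0).

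An *F2r* UMI was seen in 22.6% of CD8 T cells (exact binomial interval 22.0 to 23.2) at a median of 4554 UMIs per cell, and in 0.569% of macrophages (0.185 to 1.32) at a median of 16420 UMIs. After thinning each cell to 1000 UMIs the shares were 5.11% of 16589 CD8 T cells and 0 of 857 macrophages. The 6 *F2r* UMIs of the macrophages were 52.6 (19.3 to 115) per 1000 UMIs of the T cell genes *Cd2*, *Cd28*, and *Thy1* in the same cells. In CD8 T cells of the same matrix this ratio was 44.2 (43.0 to 45.5), inside the wide macrophage interval. In the CD11c-selected cells the ratio was 46.8 (32.9 to 64.5) in macrophages, from 37 *F2r* UMIs, and 94.5 (48.8 to 165) in the 28 CD8 T cells, and these intervals overlapped. The 3 T cell genes were not particular to T cells. Their summed level was 379 CPM in CD11c-selected and 364 CPM in CD4/CD8-selected fibroblasts, beside 752 and 1214 CPM in CD8 T cells. The fibroblast ratios were 264 (215 to 320) and 102 (67.7 to 147). Per 1000 UMIs of 7 fibroblast genes (*Sparc*, *Bgn*, *Col6a1*, *Col6a2*, *Col5a1*, *Col5a2*, *Fbn1*), CD11c-selected macrophages had 78.7 *F2r* UMIs (55.4 to 109) and fibroblasts 6.56 (5.34 to 7.97). In the CD4/CD8-selected cells these values were 102 (37.3 to 221) and 2.98 (1.98 to 4.30). The macrophage intervals lay above those of the fibroblasts in both matrices. The part of free RNA in the macrophage UMIs of *F2r* was not tested beyond these ratios.

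In the CD11c-selected cells *F2r* was highest in fibroblasts among the gates with at least 50 cells, at 99.9 CPM (81.4 to 121, 101 UMIs in 16 of 77 cells). Of these UMIs 57 were in 1 cell. Without it the level was 45.5 CPM (33.1 to 61.1), close to the 44.8 CPM (26.1 to 71.7) of the 70 T cells, so the place above T cells rested on that cell. Cells left out because they passed the fibroblast gate and another gate held 132 further *F2r* UMIs in 80 cells. Among them, 14 cells with DC and fibroblast markers had 47 and 29 with fibroblast and pericyte markers had 45. All cells that passed 2 or more gates held 43.5% of the *F2r* UMIs of this matrix. After CD4/CD8 selection 71 cells with a second gate beside fibroblast held 111. Of the 77 gated fibroblasts 39 were in run 3. In the 3 runs with at least 10 fibroblasts the values were 46.5, 65.4, and 183 CPM, and without run 3, which had the highest value, the level was 45.9 CPM. Tumor cells had 2.36 CPM (1.22 to 4.13), macrophages 0.528 CPM (0.372 to 0.728), and DCs 0.295 CPM (0.0957 to 0.687). Neutrophils had 0 UMIs, which allows up to 5.80 CPM. Macrophages and DCs did not differ beyond counting error.

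The fibroblast to macrophage ratio was 189 (129 to 284). In a comparison of these gates over all genes, 2 of the 3 PAR genes with enough UMIs were at least 4-fold higher in fibroblasts, *F2r* and *F2rl1*, and of all 13324 genes compared 15.4% were. The 49 fibroblasts of the CD4/CD8-selected cells, too few to be placed in the order, had 37 CPM of *F2r* (24.6 to 53.5), or 24.4 CPM (14.4 to 38.5) without the cell with the most UMIs. Smaller gates also held *F2r*. Among the CD11c-selected cells it was 93.6 CPM (64.0 to 132) in 19 endothelial cells, 71.1 CPM (36.7 to 124) in 28 CD8 T cells, and 31.4 CPM (11.5 to 68.4) in 31 NK cells. The 3 pericytes had 3 UMIs.

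Among gates with at least 50 cells, *F2rl1*, which encodes PAR2, was highest in tumor cells in both matrices. The level was 55.9 CPM (49.6 to 62.8, 284 UMIs) after CD11c selection and 41.7 CPM (36.4 to 47.5, 223 UMIs) after CD4/CD8 selection. Tumor stage and selection differ between the matrices, so their part in this difference cannot be told apart. The lowest, median, and highest run with at least 10 tumor cells were 49.6, 60.4, and 76.6 CPM in the former, and 28.2, 42.4, and 80.8 CPM in the latter. An *F2rl1* UMI was seen in 37.7% of the CD11c-selected tumor cells (32.3 to 43.4) at a median of 9312 UMIs per cell, against 0.186% of macrophages (0.0962 to 0.325) at a median of 8560, and after thinning in 5.69% and 0.0318%. In the CD4/CD8-selected tumor cells the share was 35.2% (29.3 to 41.3), and no tumor cell of either matrix had more than 10 *F2rl1* UMIs.

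Cells left out because they passed the tumor gate and another gate held further *F2rl1* UMIs, 180 in 163 cells after CD11c selection and 253 in 166 cells after CD4/CD8 selection. Among them, 68 CD11c-selected cells with DC and tumor markers had 122 UMIs and 111 CD4/CD8-selected cells with T cell and tumor markers had 82, while 7 with DC, T cell, and tumor markers had 71. When such cells went to the gate with the most markers, the tumor level of the CD4/CD8-selected cells was 53.8 CPM.

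Macrophages, among the cells in which the study asked about FXa-PAR2 signaling, had 12 *F2rl1* UMIs in 6446 cells, each in a different cell. This is 0.171 CPM (0.0885 to 0.299) of 70099124 UMIs, and the tumor to macrophage ratio was 327 (184 to 640). *F2rl1* was higher in tumor cells in 5 of the 5 runs that could be compared. DCs had 2 UMIs in 1255 cells (0.118 CPM, 0.0143 to 0.426), and macrophages and DCs did not differ beyond counting error. The 878 macrophages of the CD4/CD8-selected cells had 2 UMIs (0.126 CPM, 0.0152 to 0.454). A single neutrophil of 185 had an *F2rl1* UMI. These are transcript counts, and receptor protein was not measured here. The paper reports that cultured macrophages and immature DCs of PAR2G37I mice took up more tumor debris. It also reports that monocytes of these mice formed fewer aggregates with platelets. From earlier work it states that macrophages of tumors express PAR2. In PAR2G37I tumors it reports lower transcripts of immunosuppressive genes in the clusters with *F10*. With implanted PyMT cells, fewer tumor macrophages of these mice carried the platelet marker CD41.

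In the comparison of tumor cells with macrophages over all genes, 2 of 3 PAR genes were at least 4-fold higher in tumor cells, *F2rl1* by 303-fold and *F2r* by 4.72-fold with 1 UMI added to each sum, against 15.9% of 13698 genes. *F2rl2* was at 1.02-fold.

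The macrophage molecules of *F2rl1* were set beside those of tumor genes in the same cells, because free RNA of 1 source would keep its genes in 1 ratio in every cell type. With *Trf* and *Lcn2* left out, since macrophages and granulocytes also make these (a choice made after the values were seen), tumor cells had 5.84 *F2rl1* UMIs per 1000 UMIs of the 5 remaining tumor genes (5.18 to 6.56). Macrophages had 4.26 (2.20 to 7.45), an interval that overlapped that of tumor cells, while DCs had 1.01 (0.123 to 3.66, from 2 *F2rl1* UMIs), below it. With all 7 genes tumor cells had 3.22 (2.85 to 3.61), macrophages 0.421 (0.218 to 0.736), and DCs 0.454 (0.0549 to 1.64), and neither overlapped the tumor cells. The part of free RNA in the macrophage UMIs was not tested beyond these ratios. In the CD4/CD8-selected macrophages the ratio for 5 genes was 4.47 (0.542 to 16.2), beside 3.98 (3.47 to 4.53) in tumor cells.

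Fibroblasts and CD8 T cells had higher ratios. Fibroblasts had 65.7 *F2rl1* UMIs per 1000 (42.9 to 96.2) in the CD11c-selected and 24.6 (15.6 to 37) in the CD4/CD8-selected cells, and CD8 T cells had 76.2 (71.4 to 81.2). Their intervals lay above those of the tumor cells, with 5 tumor genes and with 7.

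**Figure D2:**
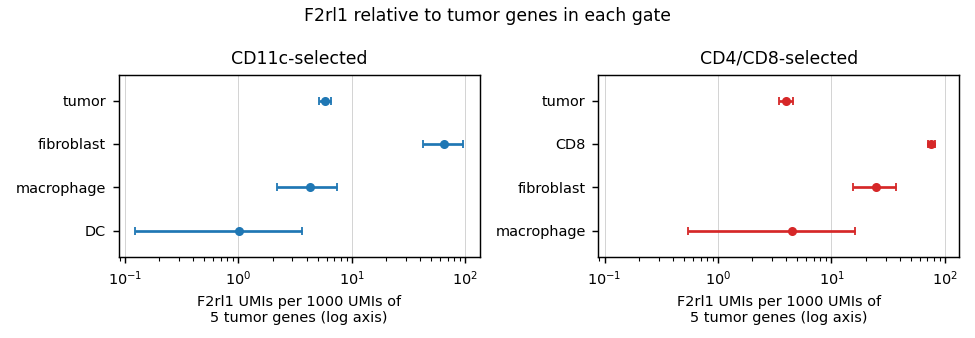
*F2rl1* UMIs per 1000 UMIs of the tumor genes *Krt19*, *Wfdc2*, *Csn3*, *Spint2*, and *Cdh1* in each gate, on a log axis with exact 95% Poisson intervals. The interval of the CD11c-selected macrophage value of 4.26 overlaps that of the tumor value of 5.84, while the CD8 value of 76.2 in the CD4/CD8-selected cells lies above the tumor value of 3.98.

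In fibroblasts *F2rl1* was 25.7 CPM (16.8 to 37.7) after CD11c and 30.4 CPM (19.3 to 45.7) after CD4/CD8 selection. These levels came from few cells, 9 of 77 and 5 of 49. One cell held 11 of 26 UMIs in the former and 15 of 23 in the latter, and without it the levels were 15.3 CPM (8.55 to 25.2) and 10.9 CPM (4.70 to 21.5). The tumor to fibroblast ratio was 2.17 (1.45 to 3.39) in the CD11c-selected cells. In the CD4/CD8-selected cells it was 1.37 (0.890 to 2.20). That interval included 1, and tumor cells were higher in 1 of the 2 runs compared.

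CD8 T cells of the CD4/CD8-selected cells had 10.1 CPM of *F2rl1* (9.50 to 10.8, 932 UMIs), which was 80.7 times the macrophage level (22.3 to 668). Tumor cells were 4.11 times higher than CD8 T cells (3.53 to 4.76) and CD4 T cells had 5.14 CPM (2.81 to 8.62). The CD8 to CD4 ratio was 1.97 (1.17 to 3.62), but CD8 T cells were higher in 4 of 6 runs, and the CD4 level, which rested on 14 UMIs, was 11.0 CPM without run 1 and 2.40 CPM without run 4. The order was tumor, CD8, CD4, and macrophage. The intervals of neighbors did not overlap, but the ranges of CD8 and CD4 T cells over runs did.

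Across barcode runs the CD8 level of *F2rl1* was uneven. The lowest run was 3.58 CPM (2.62 to 4.77), the median 9.95 CPM, and the highest 16.3 CPM (14.7 to 18), so the lowest and highest differed beyond counting error. Which animals or genotypes these stretches hold is not known from the files. In the tumor cells the run with the lowest *F2rl1* was 28.2 CPM, above the highest CD8 run. An *F2rl1* UMI was seen in 4.83% of CD8 T cells (4.51 to 5.17), 0.995% after thinning, against 0.228% of macrophages (0.0276 to 0.820).

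**Figure D3:**
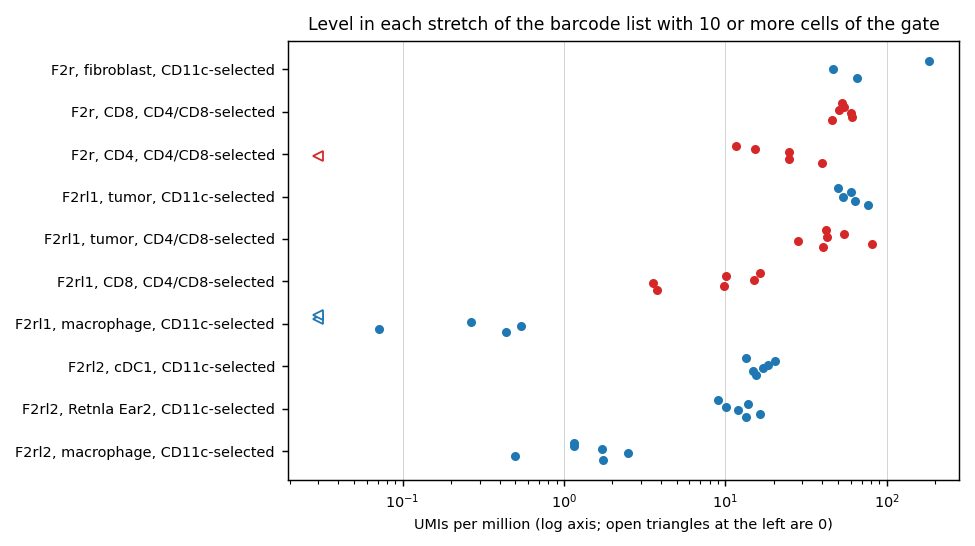
Levels by barcode run, in CPM on a log axis, for 10 combinations of gene, gate, and matrix. Each point is 1 alphabetical stretch of the barcode list with at least 10 cells of the gate (blue for CD11c-selected, red for CD4/CD8-selected), and open triangles at the left mark 0 UMIs. *F2r* in CD8 T cells ranged from 45.9 to 60.6 CPM and *F2rl1* in CD8 T cells from 3.58 to 16.3 CPM.

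CD8 T cells with a *Pdcd1* UMI, the PD-1 gene of activated and exhausted T cells, were divided into progenitor-like (*Tcf7*, no *Havcr2*, 1772 cells) and terminal-like cells (*Havcr2*, no *Tcf7*, 482 cells). *F2rl1* was 10.8 CPM (9.07 to 12.8, 136 UMIs) in progenitor-like and 3.22 CPM (1.54 to 5.91, 10 UMIs) in terminal-like cells. The ratio was 3.36 (1.77 to 7.17), and progenitor-like cells were higher in 6 of 6 runs. The states were unevenly spread over runs, with 527 progenitor-like and 41 terminal-like cells in run 6 and 160 and 95 in run 2. The summed ratio can therefore also carry differences between runs. Over runs, the lowest, median, and highest values were 3.06, 7.73, and 18.1 CPM in progenitor-like and 0, 2.51, and 10.2 CPM in terminal-like cells. The ranges over runs thus overlapped, although the intervals of the summed levels did not. The median depth was 5716 UMIs per cell in progenitor-like and 5056 in terminal-like cells. An *F2rl1* UMI was seen in 6.32% (5.23 to 7.56) and 2.07% (0.999 to 3.78) of them, and after thinning in 1.41% and 1.04%, the latter from 5 cells.

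*F2r* stood the other way, at 42.8 CPM (39.2 to 46.6) in progenitor-like and 55.0 CPM (47.1 to 63.9) in terminal-like cells. The terminal-like to progenitor-like ratio was 1.29 (1.08 to 1.53), with terminal-like cells higher in 5 of 6 runs. *F2rl2* was 2.23 CPM (1.48 to 3.22) in progenitor-like and 3.86 CPM (1.99 to 6.74) in terminal-like cells, on 28 and 12 UMIs. Its ratio of 1.73 had an interval of 0.803 to 3.52, which included 1. In the comparison of progenitor-like with terminal-like cells over all genes, 0 of the 3 PAR genes with enough UMIs passed 4-fold in either direction, while 0.359% of 10307 genes were higher and 0.446% lower in progenitor-like cells. *F2rl1* was at 3.08-fold with 1 UMI added to each sum. The 14757 CD8 T cells in neither state had 10.3 CPM of *F2rl1* (9.60 to 11.1) and 55.4 CPM of *F2r* (53.8 to 57.1).

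**Figure D4:**
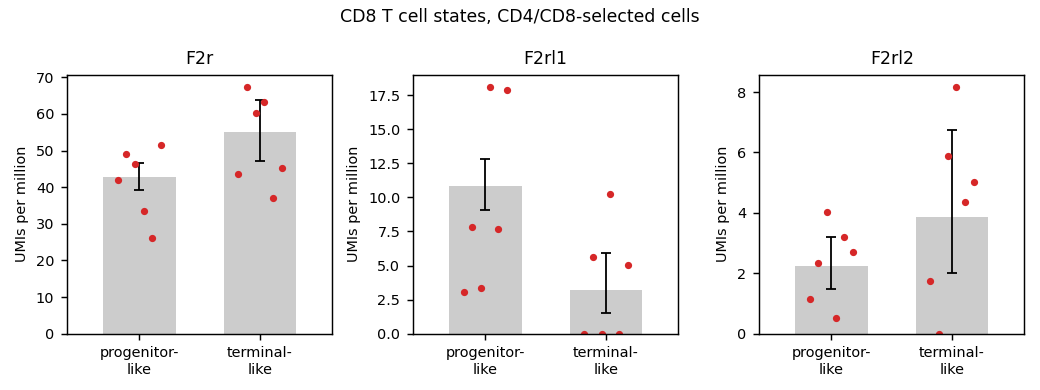
*F2r*, *F2rl1*, and *F2rl2* in progenitor-like and terminal-like CD8 T cells of the CD4/CD8-selected matrix, in CPM. Bars are levels over all cells of a state with exact 95% Poisson intervals and red points are the 6 barcode runs. *F2rl1* was 10.8 CPM in progenitor-like and 3.22 CPM in terminal-like cells, while *F2r* was 42.8 and 55.0 CPM.

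The study pairs PAR2 with coagulation proteases made by myeloid cells, so the transcripts of both were compared by gate in the CD11c-selected cells. *F10* encodes factor X. It was highest, at 201 CPM (193 to 210), in a myeloid state gated on *Retnla*, *Ear2*, *Aldh1a2*, and *Cebpe* (Retnla Ear2 cells, 668 cells). Over macrophages *F10* was 37.5 CPM (36.0 to 38.9). *F7*, for the factor VII that activates factor X with TF, had its highest level in the same state, 106 CPM (99.8 to 112), and 27.2 CPM (26.0 to 28.5) over macrophages. *Ly6c2* monocytes (104 cells gated on *Ly6c2*, *Chil3*, *Vcan*, and *Hp*) had 149 CPM of *F10* (126 to 175) and 15.5 CPM of *F7* (8.69 to 25.6). Neutrophils had 139 CPM of *F10* (109 to 175) and 1 UMI of *F7*.

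*F2rl1* was not high where these proteases were. Retnla Ear2 cells had 4 *F2rl1* UMIs (0.339 CPM, 0.0923 to 0.867), a level that did not differ from macrophages beyond counting error (ratio 1.98, 0.465 to 6.53). Of the macrophages, 735 cells with an *F10* UMI held 2 *F2rl1* UMIs (0.139 CPM, 0.0168 to 0.502) and 5711 cells without held 10 (0.179 CPM, 0.0861 to 0.330). After thinning to 1000 UMIs per cell, 0 *F2rl1* UMIs were left in 155 macrophages with an *F10* UMI, which allows up to 19.4 CPM, so a difference was not detectable at that depth. Among 443 Retnla Ear2 cells with *F10* there were 3 *F2rl1* UMIs, and among 225 without there was 1. In the 5 runs with at least 10 *Ly6c2* monocytes, the highest *F2rl1* level of these cells was 0 CPM. At the depth of all *Ly6c2* monocytes, 3 UMIs would give 3.10 CPM. The 1 *F2rl1* UMI of the neutrophils gave 1.93 CPM (0.0489 to 10.8). Both upper limits lie below the tumor level of 55.9 CPM but above the macrophage level of 0.171 CPM. Whether these 2 gates differ from macrophages could therefore not be seen.

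The genes *F3*, which encodes TF, and *F2rl1* were both highest in tumor cells and next in fibroblasts. *F3* was 353 CPM (337 to 370) in tumor cells, 221 CPM (193 to 252) in fibroblasts, and 3.30 CPM (2.88 to 3.75) in macrophages. *Procr*, the endothelial protein C receptor, was 155 CPM (132 to 182) in fibroblasts, 122 CPM (107 to 138) in migratory DCs, 36.4 CPM (35.0 to 37.8) in macrophages, and 1.58 CPM (0.680 to 3.10) in tumor cells. *F10* and *F7* had 31 and 18 UMIs in tumor cells, 6.10 CPM (4.15 to 8.67) and 3.54 CPM (2.10 to 5.60), and 0 in fibroblasts, which allows up to 2.97 CPM. Prothrombin transcripts (*F2*) numbered 2 in macrophages and 0 in tumor cells.

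**Figure D5:**
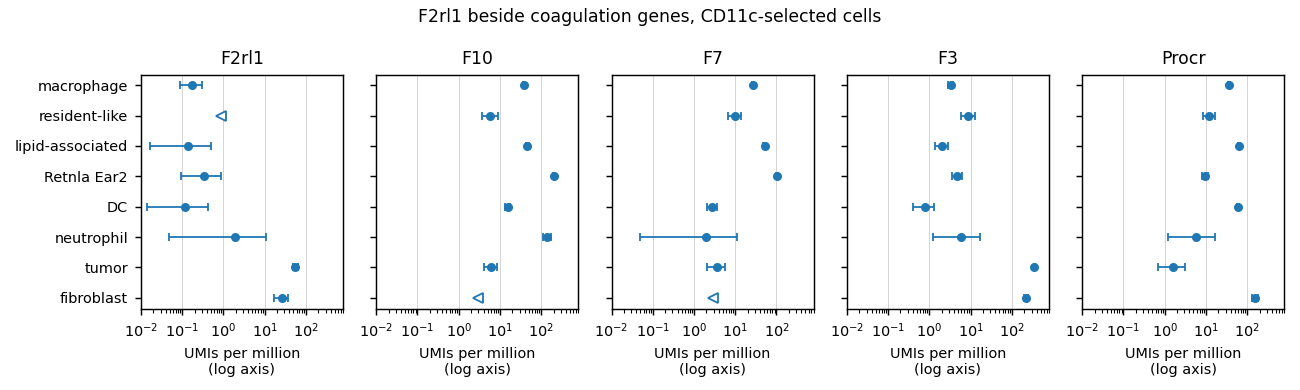
*F2rl1*, *F10*, *F7*, *F3*, and *Procr* in gates and myeloid states of the CD11c-selected cells, in CPM on a log axis with exact 95% Poisson intervals. Open triangles mark upper limits (3 UMIs) of gates with 0 UMIs. The myeloid states overlap the macrophage gate. *F2rl1* and *F3* were highest in tumor cells (55.9 and 353 CPM), and *F10* and *F7* in Retnla Ear2 cells (201 and 106 CPM).

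*F2rl2*, which encodes PAR3, was a transcript of DCs and of Retnla Ear2 cells. In DCs it was 10.1 CPM (8.62 to 11.7, 171 UMIs), and 7.51 times the macrophage level of 1.34 CPM (1.08 to 1.64), with a ratio interval of 5.81 to 9.77. DCs were higher in 6 of 6 runs. Within DCs, cDC1 (496 cells with *Xcr1* or *Clec9a*), the DC type known for cross-presenting antigen to CD8 T cells, had 16.2 CPM (13.5 to 19.3). cDC2 (435 cells with *Cd209a*) had 6.92 CPM (4.99 to 9.36), and migratory DCs (218 cells with markers of maturation such as *Fscn1* and *Ccl22*) had 1.02 CPM (0.123 to 3.68). The intervals of these 3 subsets did not overlap. The cDC1 to cDC2 ratio was 2.34 (1.64 to 3.40), and cDC1 were higher in 6 of 6 runs. The lowest, median, and highest run of cDC1 were 13.4, 16.2, and 20.4 CPM, and those of cDC2 4.64, 5.94, and 14.3 CPM, so the ranges over runs overlapped.

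Retnla Ear2 cells had 12.2 CPM of *F2rl2* (10.3 to 14.4, 144 UMIs), with 9.07, 12.7, and 16.3 CPM as the lowest, median, and highest run. The ratio of cDC1 to Retnla Ear2 cells was 1.33 (1.04 to 1.70), with cDC1 higher in 5 of 6 runs. Other myeloid states had little. Lipid-associated cells (852 cells) had 6 UMIs (0.417 CPM, 0.153 to 0.909), and the ratio of Retnla Ear2 to lipid-associated cells was 29.2 (13.1 to 80.9). Resident-like cells (335 cells) and *Ly6c2* monocytes (104 cells) had 0 UMIs, which allows up to 0.880 and 3.10 CPM. Of the macrophage gate's 94 *F2rl2* UMIs, 57 were in the 315 Retnla Ear2 cells that passed it, and the other 6131 macrophages had 0.579 CPM (0.408 to 0.799). The 353 Retnla Ear2 cells that passed no lineage gate had 15.6 CPM (12.5 to 19.3).

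An *F2rl2* UMI was seen in 19.0% of cDC1 (15.6 to 22.7) at a median of 14466 UMIs per cell and in 15.1% of Retnla Ear2 cells (12.5 to 18.1) at a median of 15626 UMIs, and after thinning in 2.22% and 1.5%. Lipid-associated cells, at a median of 14007 UMIs, had 0.469% (0.128 to 1.20). In the comparisons over all genes *F2rl2* was the 1 of 2 PAR genes with enough UMIs that was at least 4-fold higher in cDC1 than in macrophages, as were 3.67% of 12984 genes. It was also the single PAR gene with enough UMIs for Retnla Ear2 against lipid-associated cells, at 25.2-fold with 1 UMI added to each sum, where 3.21% of 11449 genes were at least 4-fold higher.

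Whether the counting used strand is not given in the sources used here, and without strand, intronic molecules of *Iqgap2* could not be told apart from *F2rl2*. *Iqgap2* was highest in resident-like cells, at 123 CPM (112 to 136), where *F2rl2* had 0 UMIs. It was 76.5 CPM (70.5 to 82.9) in cDC1, 87.3 CPM (80.1 to 95.1) in cDC2, and 59.7 CPM (55.4 to 64.3) in Retnla Ear2 cells, beside 56.0 CPM (52.2 to 60.0) in lipid-associated cells.

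In the CD4/CD8-selected cells *F2rl2* was 1.96 CPM (1.68 to 2.27, 180 UMIs) in CD8 T cells and 0.439 CPM (0.177 to 0.905) in macrophages, with a ratio of 4.45 (2.12 to 11.2). Over runs the CD8 level had a lowest value of 1.29, a median of 1.85, and a highest of 3.50 CPM. CD4 T cells had 3 UMIs, or 1.10 CPM (0.227 to 3.22). The 16 Retnla Ear2 cells of this matrix had 4 *F2rl2* UMIs, or 12.6 CPM (3.44 to 32.4).

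Of CD8 T cells against macrophages, 2 of 4 PAR genes were at least 4-fold higher in CD8 T cells by the fold with 1 UMI added, *F2r* and *F2rl1*, against 13.2% of 13521 genes, while *F2rl2* reached 3.92-fold and *F2rl3* 1.95-fold. Of tumor cells against CD8 T cells, *F2rl1* was at least 4-fold higher in tumor cells, as were 20.7% of 13731 genes, and *F2r* and *F2rl2* were at least 4-fold lower, as were 8.71%.

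*F2rl3*, the PAR4 gene, had few UMIs. CD8 T cells of the CD4/CD8-selected cells had 44 UMIs in 17011 cells, or 0.479 CPM (0.348 to 0.642), and macrophages had 3 UMIs (0.188 CPM, 0.0388 to 0.550). Their ratio of 2.54 had an interval of 0.814 to 12.8, so the gates did not differ beyond counting error. In the CD11c-selected cells macrophages had 4 UMIs, DCs 2, tumor cells 2, and fibroblasts 0. Of the 19 endothelial cells 2 had an *F2rl3* UMI, and 11 cells with DC and endothelial markers held 3. Because PAR4 is known from platelets, transcripts of 7 platelet genes were counted in the same cells. Cells with UMIs of at least 2 of them numbered 1 among the CD11c-selected and 6 among the CD4/CD8-selected cells, and they held 0 and 1 *F2rl3* UMIs.

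A list of 23 genes held proteases and cofactors that act on PARs or with them, and *Tfpi*, which encodes the inhibitor of the TF pathway. Of these genes, 16 could be compared between tumor cells and macrophages. In tumor cells 7 were at least 4-fold higher and 8 at least 4-fold lower, with a median log2 fold of −1.59 beside 0.27 over all genes. Of all genes, 15.9% were higher and 8.96% lower. The higher ones included the membrane serine proteases *St14* (matriptase, a known activator of PAR2), at 218 CPM in tumor cells and 2.17 CPM in macrophages, *Prss8* (44.1 and 0.171 CPM), *Tmprss2* (67.7 and 0.0999 CPM), and *Hpn* (15.8 and 2.40 CPM). *F3* and, at low levels, *Proc* and *Prtn3* were the others. The lower ones were *F7*, *F10*, *Procr*, *Thbd*, *Tfpi*, *Ctss*, *Plau*, and *Mmp13*. *Ctss*, for cathepsin S, a protease of the endolysosome, was 4050 CPM in macrophages and 115 CPM in tumor cells.

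Fibroblasts had 6 of 13 comparable genes at least 4-fold higher than macrophages, among them *F3*, *Procr*, and *Thbd*, which encodes the thrombin receptor thrombomodulin (141 and 19.6 CPM), and 4 lower (*F7*, *F10*, *Ctss*, *Mmp13*), where 15.4% of all genes were higher and 7.69% lower. The list's median log2 fold was −0.14 and that of all genes 0.14. In cDC1 against macrophages 0 of 13 were higher and 10 lower (3.67% and 10.6% of all genes), with a median of −2.71 beside −0.10. In Retnla Ear2 against lipid-associated cells 1 of 12 was higher, *F10*, and 2 lower, *Procr* and *Mmp13* (3.21% and 5.45% of all genes), with a median of −1.14 beside −0.10.

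In CD8 T cells against macrophages 4 of 14 were higher, the granzymes *Gzma*, *Gzmb*, and *Gzmk* and *St14*, and 9 lower (13.2% and 14.9% of all genes), with a median of −5.14 beside 0.24. *Gzma* was 396 CPM in CD8 T cells, *Gzmb* 349 CPM, and *Gzmk* 207 CPM. The 3 granzymes were also among the 5 genes that were lower in tumor than in CD8 T cells, where 9 of 14 were higher (20.7% of all genes were higher and 8.71% lower) and the median was 4.69 beside 0.27. In progenitor-like against terminal-like CD8 T cells 0 of 6 were higher and 1 lower, *Gzma* (132 and 1436 CPM), where 0.359% and 0.446% of all genes were, with a median of −1.05 beside −0.15.

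Of the 7 signal transducers of PARs (G protein alpha subunits and beta-arrestins) all could be compared in each case. *Gna11* was at least 4-fold higher in tumor cells (50.6 CPM) and fibroblasts (57.4 CPM) than in macrophages (10.8 CPM), so that 1 of 7 passed where 15.9% and 15.4% of all genes did. *Gna12*, *Gna13*, and *Arrb2* were lower in tumor cells (3 of 7, and 8.96% of all genes), and *Arrb2* in fibroblasts (1 of 7, and 7.69%). *Arrb2*, which encodes beta-arrestin, was 140 CPM in macrophages, 8.47 CPM in tumor cells, and 2.97 CPM in fibroblasts. *Gna12* was lower in cDC1 (1 of 7, and 10.6%), and *Gna12*, *Gnaq*, and *Arrb1* were lower in CD8 T cells than in macrophages (3 of 7, and 14.9%). *Gnaq* and *Arrb1* were higher (2 of 7, and 20.7%) and *Arrb2* lower (1 of 7, and 8.71%) in tumor than in CD8 T cells. In Retnla Ear2 against lipid-associated cells (3.21% higher and 5.45% lower of all genes) and between the CD8 T cell states (0.359% and 0.446%) 0 of 7 passed. With 7 genes these counts are a description. The medians of the 7 log2 folds lay between −1.24 and 0.77.

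The genes whose levels over the gates were most like those of each PAR gene with at least 100 UMIs were found by Pearson correlation of log2(CPM + 1), over 12 gates for CD11c and 9 gates for CD4/CD8 selection. Gates overlap, since states and subsets lie within lineages, and the gates of 1 matrix share its libraries. In the CD11c-selected cells *F2r* was most like *Igsf10* (r = 0.994), *Cpxm2*, *Nid1*, *Adamts5*, and *Fndc1*, of which *Nid1* encodes a basement membrane protein and *Adamts5* a matrix protease. *F2rl1* was most like *Nbea* (r = 0.997), *Ephb4*, *Pdzd2*, *Erbb2*, and *Ntn1*, among them 2 receptor tyrosine kinases. *F2rl2* was most like *Maz* (r = 0.961), *Pkmyt1*, *Dut*, *Mxd3*, and *Ryr1*, with *Pkmyt1* a kinase of mitotic entry and *Dut* a dUTPase.

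In the CD4/CD8-selected cells *F2r* was most like *Rpl27* (r = 0.999), *Nfrkb*, *Rps15a*, *Gm11808*, and *Itga1*. *Rpl27* and *Rps15a* encode ribosomal proteins and *Itga1* the integrin alpha chain CD49a. *F2rl1* was most like *Hddc2* (r = 0.993), *Bcl9l*, *Pxylp1*, *Ercc2*, and *Iqcb1*, with *Bcl9l* a coactivator of beta-catenin and *Ercc2* a helicase of nucleotide excision repair. *F2rl2* was most like *Mrps23* (r = 0.988), *Kif20b*, *Taf10*, *Mms22l*, and *Cdkn2c*, with *Kif20b* a kinesin of cell division and *Cdkn2c* an inhibitor of the G1 kinases. The names are a description.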

How the data were processed

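CD11c and CD4/CD8 bead-selected cells of PyMT tumors were frozen, thawed, and sequenced on the 10x Genomics platform, with 3 biological replicates per genotype and cell type. The submitters' processing notes name Cell Ranger 3.0.2 and mm10. For each selection the authors deposited 1 matrix of raw UMI counts, which are whole and not normalized. Barcodes name no sample, so the comparison of genotypes that had been intended was not run.

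A minimum of 200 detected genes per cell left out 341 and 295 barcodes. A gate needs a UMI of 2 or 3 different markers of a lineage. UMIs were summed over the cells of a gate and divided by all their UMIs, per 1000000 (CPM). Intervals are exact (Poisson, Clopper-Pearson, 95%), and ratios were conditioned on the sum of UMIs. Folds over all genes used 1 added UMI, genes with at least 20 UMIs, and a 4-fold limit. No doublet caller was run, and cells that passed more than 1 gate were left out instead.

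The members, the gates, the list of 30 pathway genes, and the tests were chosen with earlier results of these data known. The genes named are the 4 members, that list, and for each member with at least 100 UMIs the 5 genes most like it over gates with at least 50 cells. Genes that define gates or sit in the check of gates, and *Iqgap2*, are named besides. Positions and the *F2rl1* bases are from GENCODE M21 (GRCm38, the assembly of mm10), which holds 98.0% of the symbols. Scripts ran in Python 3.11.15 with numpy 2.4.6 and scipy 1.17.1 and were tested on simulated data. Alternatives included stricter gates, means over cells, and barcode runs left out in turn. One further state of CD8 T cells is not reported here and was left out of the gates.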

Additional observations from a re-analysis of the deposited data

How the results depend on the processing

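No paired analysis was possible because the barcodes name no sample, so replicate numbers could not be assigned to cells. For 29 gate levels recomputed with other settings or with 1 barcode run left out, 343 of 377 values stayed within the 95% interval of the level as reported, and the cause of the other shifts was not tested. A minimum of 500 detected genes, leaving out cells over 20% mitochondrial UMIs, and leaving out repeated barcodes moved 0 of 29. Means over cells moved 8 of 29, and leaving out 1 barcode run moved 18 of 174. Either change of the gates (1 more marker, or the gate with the most markers) moved 3 of 29. Leaving out the highest 5% of cells by UMIs moved 2 of 29. A mean over cells gave 47.4 CPM for *F2r* in CD11c-selected fibroblasts, 69.8 and 35.4 CPM for *F2rl1* in CD11c- and CD4/CD8-selected tumor cells, and 56.5 CPM for *F2r* in CD8 T cells. The fibroblast value was 44.2 CPM without the highest 5% of cells by UMIs, and 45.5 CPM without the 1 cell with most *F2r* UMIs, an alternative added after the data had been seen. In CD4/CD8-selected tumor cells *F2rl1* was 50.4 CPM with 1 more marker per gate and 53.8 CPM with cells given to the gate with most markers. With each barcode run left out in turn, *F2r* ranged from 45.9 to 112 CPM in CD11c-selected fibroblasts and from 52.4 to 55.6 CPM in CD8 T cells. *F2rl1* ranged from 53.0 to 58.7 CPM (CD11c-selected) and 37.2 to 51.3 CPM (CD4/CD8-selected) in tumor cells, 7.95 to 11.7 CPM in CD8 T cells, and 0.115 to 0.227 CPM in CD11c-selected macrophages. *F2rl2* ranged from 15.8 to 16.6 CPM in cDC1 and 11.8 to 12.7 CPM in Retnla Ear2 cells.

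At 2-fold in place of 4-fold, genes higher in fibroblasts than macrophages numbered 3787 in place of 2047, in tumor cells than macrophages 3817 (2182), in cDC1 than macrophages 1305 (477), in Retnla Ear2 than lipid-associated cells 1002 (368), in CD8 T cells than macrophages 3891 (1785), in tumor than CD8 T cells 4420 (2849), and in progenitor-like than terminal-like CD8 T cells 257 (37). Genes lower in the first-named gate numbered, in the same order, 2253 (1025), 2311 (1227), 2864 (1372), 1735 (624), 3124 (2010), 2487 (1196), and 376 (46). By Spearman correlation of CPM, 0 to 2 of the 5 most like genes were among the 5 named. Levels under 3 UMIs cannot be told from 0 at this depth.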
